A study of Mus musculus with 48 samples.

Results

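Gene expression in the hypothalamus was compared with that in the frontal cortex of the same Per3 4/4 mice at the end of 12 h of sleep deprivation. The members were the arrays that the sample titles assign to these mice, 16 of the 48 arrays in the series, with 8 hypothalamus and 8 cortex arrays from 8 of the 24 mice. Per3 4/4 mice were C57BL/6 mice homozygous for a knock-in in which 1 exon of mouse Per3 was replaced by the human PER3 exon carrying 4 copies of its tandem repeat. The human exon was exposed by Cre-Lox recombination in conditional transgenic founders, and the breeding removed Cre, so the mice tested did not carry it. The Per3 5/5 mice, with 5 copies of the repeat, and wild-type (WT) mice, 8 of each, served only to ask whether the tissue difference was particular to Per3 4/4. Every mouse was adult, was kept awake from light onset through the light phase, and belonged to 1 of these 3 genotypes; mice that had been allowed to sleep were not analysed here. Brains were placed whole in RNAlater, and tissue blocks were cut from them, so each array held the RNA of all cell types in its block. In such bulk samples, fewer cells of a type and less RNA per cell cannot be told apart.

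The frontal cortex is built mainly of glutamatergic projection neurons, whose calcium signalling and activity-dependent transcription are strong during wakefulness. The hypothalamus holds neuropeptide neurons that govern arousal, feeding, water balance and the stress axis, lies against the third ventricle with its ependymal cells and tanycytes, and is crossed by myelinated tracts. Glia, blood vessels and the cellular stress pathways are present in both regions, and their regional differences are less often described than those of neurons.

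Values are log2 signals relative to the 75th percentile of each array, so that 0 is the level of that percentile, and a difference is the hypothalamus minus the cortex of the same mouse. The 75th percentile signal lay between 324 and 1102 intensity units in cortex and between 307 and 1575 in hypothalamus, with no saturated spots and with 27855 to 31785 probes well above background on each array. Pearson correlations across probes ranged from 0.971 to 0.990 between cortex arrays and from 0.975 to 0.993 between hypothalamus arrays. All hypothalamus samples were hybridised at slide positions 1 or 3 and all cortex samples at positions 2 or 4, so position and tissue cannot be told apart. The cortex array of replicate 2 stood apart. Its striatum markers summed to 26.1 times the 75th percentile, whereas the other 7 cortex arrays lay between 8.59 and 9.66 and the hypothalamus arrays between 11.8 and 14.0. Some counts and calls below are also given without replicate 2, which leaves out both arrays of that mouse. The outlying values of its cortex array are listed with the flagged results.

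Expression differed between the tissues for most genes. Of 29684 probes tested, 18018 were called at an adjusted p under 0.05 (limma with mouse as a block, Benjamini-Hochberg), 9538 higher and 8480 lower in the hypothalamus, or 60.7%, 32.1% and 28.6% of the probes. With 1 probe per gene, 10221 of 15639 genes were called (65.4%), of which 5770 were higher (36.9%) and 4451 lower (28.5%). The median difference of all genes was 0.06, and among called probes the median size was 0.59. With normexp background correction 40.9% of the called probes were higher, against 52.9%. Differences of at least 2-fold were found for 1561 genes in the higher direction (9.98%) and 1186 in the lower (7.58%). The 2 tissues did not overlap in 4930 genes (31.5%), meaning that the lowest array of one tissue exceeded the highest of the other. Every count of listed genes below is to be read against these shares.

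The tissue labels were borne out by the markers. All 15 cortex markers tested were lower in the hypothalamus, 14 of them at least 2-fold, with a median difference of -3.88, and 14 of 15 hypothalamus markers were higher at least 2-fold, with a median of 6.07. Hcrt, the orexin precursor, ranged from -3.54 to -2.84 in cortex (median -3.22) and from 6.66 to 7.33 in hypothalamus (median 7.11), a difference of 10.27 ± 0.13 (SE, n = 8 mice) or 1238-fold (adjusted p = 3.91e-10). Neurod6, a transcription factor of cortical projection neurons, ranged from 1.28 to 2.14 in cortex (median 1.88) and from -4.93 to -4.48 in hypothalamus (median -4.74), a difference of -6.56 ± 0.10 (adjusted p = 6.47e-10). Neither gene overlapped between the tissues. The 1 hypothalamus marker that went the other way was Lhx6, which cortical interneurons also express (-1.29 ± 0.24, adjusted p = 0.000966). Among genes detected above background in both tissues, on 6 or more arrays of each, the largest differences were those of Pmch (10.42), Hcrt, Avp (10.35), Oxt (9.21), Sytl4 (7.17), Ccdc153 (7.10), Asb4 (7.04), Igsf1 (6.77), Dlk1 (6.74) and Cga (6.55) in the higher direction. In the lower direction they were those of Slc17a7 (-7.46), Neurod6, Neurod2 (-6.14), Psrc1 (-5.66), Ankrd33b (-5.49), 9130024F11Rik (-5.44), Kcnh3 (-5.40), Epop (-5.13), Tbr1 (-5.11) and Krt12 (-5.11).

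Markers of tissue that borders the hypothalamus were also higher in its blocks. Thalamus markers, 8 of 9 called higher and none lower, summed to between 15.7 and 30.2 times the 75th percentile in hypothalamus and between 4.55 and 5.48 in cortex. Choroid plexus markers, 6 of 7 tested called higher, summed to 4.05 to 5.47 and 0.267 to 0.644. Ttr, the plexus transthyretin gene, was above background on 4 hypothalamus and 0 cortex arrays and was not tested. Pituitary markers, 4 of 7 called higher, summed to 2.23 to 5.26 and 0.322 to 0.709. None was called higher with the strict filter on dim probes, which asks for signal above background on all 16 arrays. The pituitary hormone genes divided. Tshb, above background on 8 hypothalamus and 0 cortex arrays, was called higher (adjusted p = 6.62e-09), and Cga had the largest difference of the list (6.55). Gh and Prl were not called (adjusted p = 0.672 and 0.411). Of 10 striatum markers 4 were higher and 4 lower, with or without replicate 2. The part of neighbouring tissue in the differences below was not tested.

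**Figure D1:**
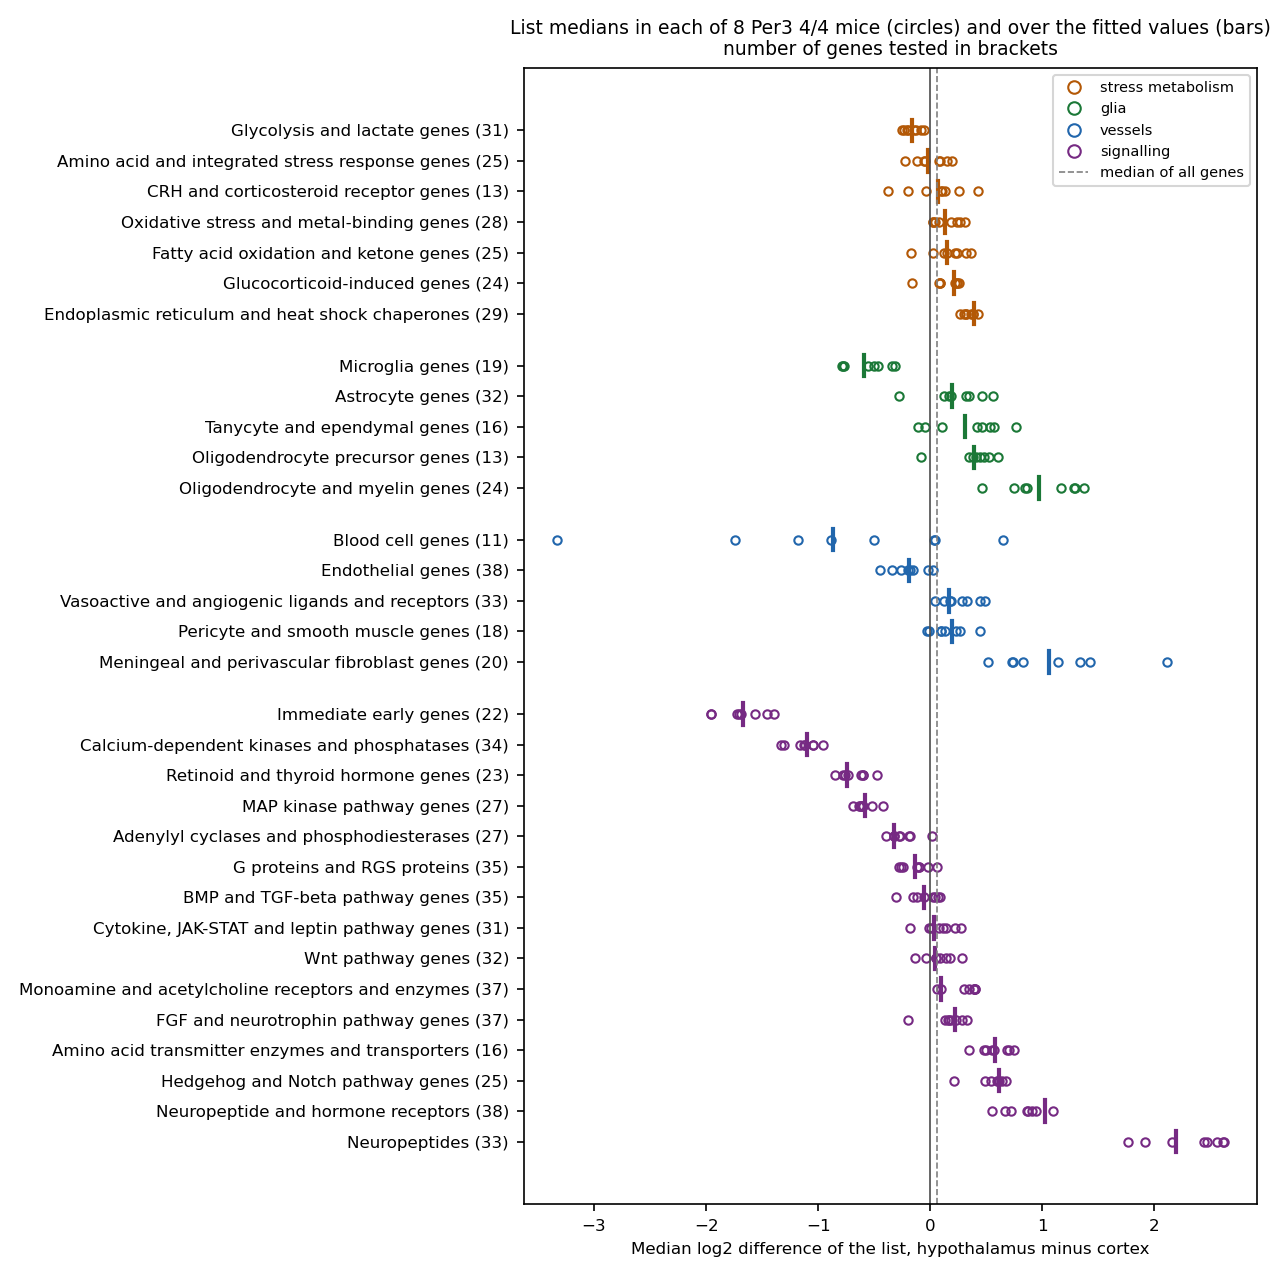
Median log2 difference, hypothalamus minus cortex, of each list of stress metabolism, glia, vessels and signalling in each of the 8 Per3 4/4 mice (circles) and over the fitted values (bars), with the number of genes tested in brackets and the median of all genes, 0.06, as a dashed line; the marker lists of region and of neighbouring tissue are not drawn. Among the lists drawn, neuropeptides lie farthest to the right with a median of 2.19 and immediate early genes farthest to the left with -1.67, while blood cell genes spread from -3.33 to 0.65 between mice.

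Among the stress pathways, chaperone genes were higher in the hypothalamus by small amounts. Chaperones fold newly made proteins and refold damaged ones, those of the endoplasmic reticulum under the unfolded protein response and those of the cytosol and mitochondria under heat shock factors. Of 29 chaperone genes tested, 21 were higher, 2 were lower and 6 were not called, with a median difference of 0.39 against 0.06 for all genes, and none reached 2-fold. The list median was above 0 in all 8 mice, from 0.27 to 0.43. Bag3, a co-chaperone of Hsp70 in selective autophagy, ranged from -0.74 to -0.27 in cortex (median -0.51) and from 0.13 to 0.73 in hypothalamus (median 0.48), a difference of 0.97 ± 0.06 (SE, n = 8) or 1.96-fold (adjusted p = 3.75e-07). Cryab, the small heat shock protein αB-crystallin, which oligodendrocytes and astrocytes express, lay between 2.73 and 3.32 in cortex (median 2.96) and between 3.46 and 4.09 in hypothalamus, a difference of 0.73 ± 0.09 (adjusted p = 6.34e-05). The tissues overlapped for neither gene. Hspa5, the main Hsp70 of the endoplasmic reticulum, ranged from 3.80 to 4.33 in cortex (median 3.95) and from 4.28 to 4.71 in hypothalamus (median 4.43). Its difference was 0.45 ± 0.06 (adjusted p = 8.46e-05), with overlapping groups but a higher value in the hypothalamus of every mouse. Hspe1, the mitochondrial co-chaperonin, differed by 0.71, Hspb1 by 0.69 and Dnajc3, an inhibitor of the kinase PERK, by 0.61 (adjusted p = 2.01e-05, 0.000566 and 4.83e-05). The exceptions were Dnajb11 (-0.33 ± 0.05, adjusted p = 0.000211) and Calr, the lectin chaperone calreticulin (-0.25 ± 0.05, adjusted p = 0.00185), both of the endoplasmic reticulum. The abundant cytosolic chaperones Hspa8 and Hsp90aa1 gave -0.13 and 0.10 (adjusted p = 0.0621 and 0.196). Without replicate 2 the counts were 20 higher and 2 lower.

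The promoters of this list show which members share the classical elements of the 2 responses. RefSeq promoters (GRCm38.p6, 250 bases before to 50 after the start) were found for 24 of the 30 listed genes and searched on both strands for the endoplasmic reticulum stress element, CCAAT and CCACG with 9 bases of any kind between them, and for a heat shock element, GAA, TTC and GAA with 2 bases of any kind between neighbours. Read on the other strand these are CGTGG and ATTGG, and TTC, GAA and TTC. The first was in 7 of the 24 (29.2%) and in 37 of 27025 genes overall (0.137%), and the second in 3 of the 24 (12.5%) and in 179 overall (0.662%). Both elements were chosen as those of chaperone genes, so these shares are no test of the list. Windows of 5 genes are shown because they carry the same element beside differences of opposite sign or of no call, with the letters of the element in capitals, each 5′ to 3′ along the strand of its gene.
Hspa5 (chr2:34772013-34772055, plus strand): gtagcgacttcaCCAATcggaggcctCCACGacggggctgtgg
Dnajc3 (chr14:118937815-118937857, plus strand): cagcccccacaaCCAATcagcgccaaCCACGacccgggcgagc
Calr (chr8:84847063-84847105, minus strand): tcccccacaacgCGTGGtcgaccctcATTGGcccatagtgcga
Hspe1 (chr1:55088047-55088083, plus strand): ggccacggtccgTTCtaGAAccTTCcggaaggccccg
Hsph1 (chr5:149636287-149636312, minus strand): aaatgctgcagaTTCtgGAAagTTCt
The stress element of the reticulum stood in front of Hspa5 (0.45), Dnajc3 (0.61), Canx (0.47), Creld2 (0.45), Hsp90b1 (0.32), Pdia6 (0.17) and Calr (-0.25), 6 of which were higher and 1 lower. The heat shock element stood in front of Hspe1 (0.71) and Hspd1 (0.39), whose promoters overlap head to head, and lay after the start of Hsph1, which was not called (-0.07). Genes with the same letters thus lay on both sides of 0. The call on Calr was lost with quantile normalization (-0.13, adjusted p = 0.0881) and without mouse as a block (adjusted p = 0.0996). It was also lost in the first or the later scan days alone (adjusted p = 0.0559 and 0.0854). A match of letters is a description, not a site of binding.

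Genes of the glucocorticoid response divided. Corticosterone rises with waking and with sleep loss and acts on both tissues through the glucocorticoid receptor. Of 24 induced genes 11 were higher, 7 lower and 6 not called, with a median of 0.21. Plin4, which coats lipid droplets, ranged from -0.33 to 0.92 in cortex (median 0.34) and from 1.15 to 2.20 in hypothalamus (median 1.55), a difference of 1.28 ± 0.08 (adjusted p = 6.81e-07) with no overlap. Pnpla2, the adipose triglyceride lipase, was higher by 0.78 (adjusted p = 1.96e-05) and the kinase gene Sgk1 by 0.49 (adjusted p = 0.0015). Mertk, a receptor for engulfment of dying cells and synapses, ranged from 0.85 to 1.92 in cortex (median 1.06) and from -0.60 to -0.20 in hypothalamus (median -0.32), a difference of -1.56 ± 0.10 (adjusted p = 5.02e-07). Cdkn1a, the cell cycle inhibitor p21, was lower by the same order (-1.41 ± 0.12, adjusted p = 4.86e-06). Fkbp5, a widely used marker of the response, gave 0.06 ± 0.12 (adjusted p = 0.7), and the receptor gene itself, Nr3c1, 0.10 (adjusted p = 0.235).

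The 2 receptors of corticotropin-releasing hormone (CRH) differed between the tissues in opposite directions. Crhr1 ranged from 1.75 to 2.34 in cortex (median 2.06) and from 0.09 to 0.73 in hypothalamus (median 0.52), a difference of -1.60 ± 0.09 (adjusted p = 1.83e-07). Crhr2, the receptor preferred by the urocortins, ranged from -2.12 to -1.59 in cortex (median -1.93) and from 0.60 to 0.89 in hypothalamus (median 0.79), a difference of 2.66 ± 0.07 (adjusted p = 2.35e-09). Neither overlapped. Of the 13 genes of this list 5 were higher, all at least 2-fold, 4 were lower and 4 were not called, around a median of 0.07. Avp, the vasopressin gene, ranged from -5.12 to -3.005 in cortex (median -4.73) and from 5.53 to 6.30 in hypothalamus (median 5.83; difference 10.35 ± 0.22, 1303-fold, adjusted p = 1.26e-09). Ucn3, the gene of urocortin III, was not well above background on any cortex array and was at least 9.52-fold higher in hypothalamus (adjusted p = 4.07e-09). The gene of urocortin I, Ucn, was lower (-1.06 ± 0.33, adjusted p = 0.0193), a call that was lost without replicate 1 (-0.95, adjusted p = 0.0508).

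Genes of oxidative stress and metal binding had more higher than lower calls, with 13 of 28 higher, 2 lower and 13 not called. Their median was 0.13 against 0.06 for all genes. Scaled to the array median, it was 0.045 and 5 were called lower. Gpx3, a secreted glutathione peroxidase, had the largest difference of the list. It ranged from -1.90 to -1.16 in cortex (median -1.57) and from 2.63 to 3.21 in hypothalamus (median 2.90), a difference of 4.55 ± 0.09 or 23.4-fold (adjusted p = 1.05e-09). Txnip, an inhibitor of thioredoxin that follows glucose and glucocorticoids, ranged from -1.13 to -0.49 in cortex (median -0.72) and from 0.05 to 0.86 in hypothalamus (median 0.53; difference 1.27 ± 0.09, adjusted p = 1.32e-06). The tissues overlapped for neither. Srxn1, sulfiredoxin, and Sod2, the mitochondrial superoxide dismutase, were lower by small amounts (-0.28 and -0.21, adjusted p = 0.00836 and 0.00593), calls that were lost with quantile normalization (-0.16 and -0.09, adjusted p = 0.0669 and 0.129). Hmox1, a common sensor of oxidative stress, gave -0.06 (adjusted p = 0.456).

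The integrated stress response, which lowers translation and switches on the transcription factor ATF4 when amino acids are short, showed no common direction. Of 25 genes 9 were higher, 7 lower and 9 not called, around a median of -0.02. Slc7a3, a transporter of cationic amino acids, ranged from -0.61 to 0.71 in cortex (median 0.39) and from 1.92 to 2.29 in hypothalamus (median 2.05), a difference of 1.80 ± 0.17 (adjusted p = 7.84e-06), and Mthfd2, a mitochondrial folate enzyme, was higher by 0.99 (adjusted p = 5.39e-05). Gadd45b, which neuronal activity also induces, ranged from 0.83 to 1.24 in cortex (median 1.01) and from -0.63 to 0.14 in hypothalamus (median -0.26; difference -1.28 ± 0.10, adjusted p = 1.71e-06). Psph, the last enzyme of serine synthesis (-0.69), Atf4 itself (-0.57) and Ddit3, the gene of the transcription factor CHOP (-0.32), were lower too (adjusted p = 0.000114, 0.000237 and 0.00337). Scaled to the array median, which moved every difference down, 11 rather than 7 of these genes were called lower.

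Genes of carbohydrate use had more lower than higher calls. Of 31 genes of glycolysis and lactate handling 5 were higher, 14 lower and 12 not called, with a median of -0.16 that was below 0 in every mouse (-0.25 to -0.05). Of 25 genes of fatty acid oxidation and ketone use 10 were higher, close to the background share, 5 lower and 10 not called, with a median of 0.15. Slc16a7, the lactate and pyruvate transporter MCT2 of neurons, ranged from -1.25 to -0.83 in cortex (median -1.06) and from -2.53 to -2.19 in hypothalamus (median -2.35), a difference of -1.28 ± 0.06 (adjusted p = 4.32e-08). Pdk3, a brake on pyruvate dehydrogenase, was lower by 0.93 on the log2 scale (-0.93, adjusted p = 1.37e-06), while Pygm, the muscle and astrocyte glycogen phosphorylase, was higher (0.50, adjusted p = 0.000156). Ucp2, the mitochondrial carrier that hypothalamic neurons use when they burn fatty acids, ranged from -1.50 to -0.96 in cortex (median -1.27) and from 0.12 to 0.98 in hypothalamus (median 0.65), a difference of 1.89 ± 0.12 (adjusted p = 8.1e-07). Cpt2, of the carnitine shuttle into mitochondria, differed by 1.25 ± 0.09 (adjusted p = 1.02e-06). Neither Ucp2, Cpt2 nor Slc16a7 overlapped between tissues. The ketone enzymes went the other way, Oxct1 by -0.53 and Bdh1 by -0.44 (adjusted p = 2.24e-05 and 0.000162).

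**Figure D2:**
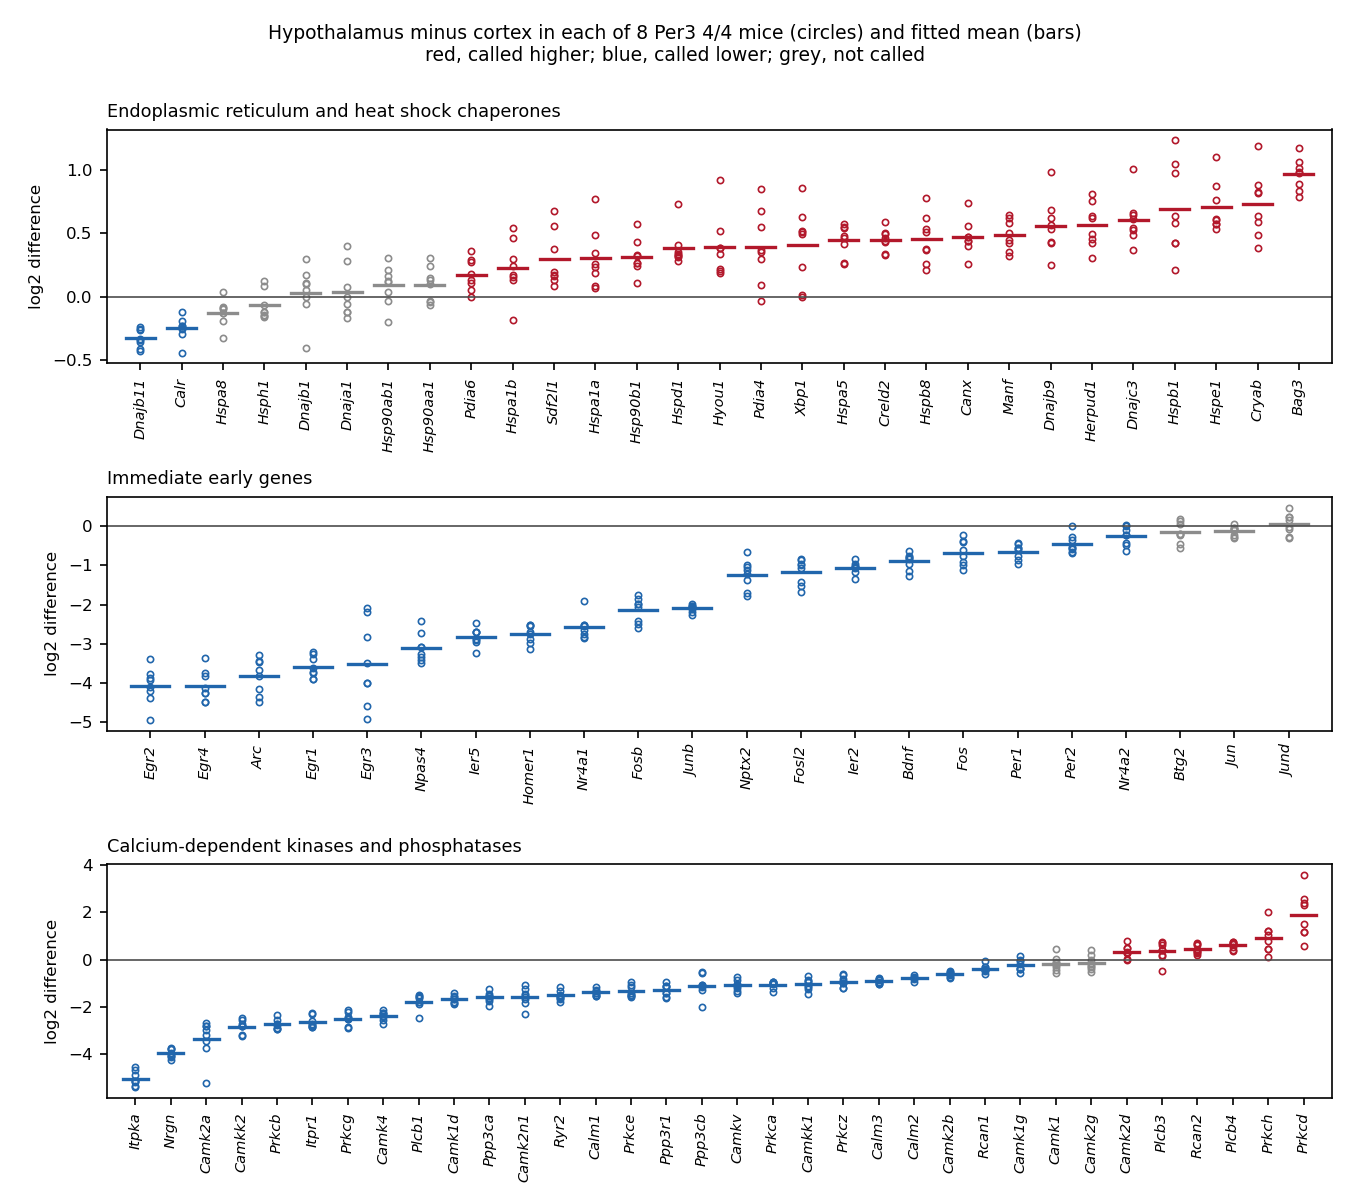
Log2 difference, hypothalamus minus cortex, of every tested chaperone, immediate early and calcium kinase or phosphatase gene in each of the 8 mice (circles) with the fitted mean (bars; red, called higher; blue, called lower; grey, not called). Chaperones lie mostly between 0 and 1, whereas 19 of 22 immediate early genes were called lower; Egr3 was below background on every hypothalamus array, so its circles are not a measured size.

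Glial lists differed from one another in direction. Oligodendrocyte and myelin genes were higher, with 22 of 24 called higher, none lower and 11 at least 2-fold (median 0.97; 0.46 to 1.37 over the 8 mice), and 18 of the 24 did not overlap between tissues. Mobp, a structural protein of compact myelin, ranged from 1.07 to 2.24 in cortex (median 1.73) and from 2.57 to 3.17 in hypothalamus (median 2.78), a difference of 1.13 ± 0.15 (adjusted p = 0.0001). Mag, the adhesion protein of the inner myelin layer, differed by 1.17. Nkx6-2, a homeobox gene of mature oligodendrocytes, had the largest difference of the list, from between 0.08 and 0.79 (median 0.27) to between 2.28 and 2.79 (median 2.50), or 2.12 ± 0.08 (adjusted p = 1.99e-08). Fa2h, which makes the hydroxylated lipids of myelin, followed (1.38 ± 0.13, adjusted p = 1.04e-05). For Mbp, myelin basic protein, 2 probes gave 0.87 and 0.88 and the third -0.34. The precursors of these cells were higher by less, with 10 of 13 genes called higher and 1 lower (median 0.39): the transcription factor gene Nkx2-2 differed by 1.74, Lhfpl3 by 1.55, and the defining markers Pdgfra and Gpr17 by 0.31 and 0.36 (adjusted p = 0.00892 and 0.0099), while Cspg4 gave -0.02 (adjusted p = 0.893). Tnr, the matrix protein tenascin-R, was lower (-0.56, adjusted p = 4.71e-05).

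Microglial genes were lower together. All 5 defining markers and 18 of 19 listed genes were called lower and none higher, with a median of -0.59 that was below 0 in every mouse (-0.79 to -0.31), although only 1 gene reached 2-fold and only 3 had no overlap. Aif1, the cytoskeletal protein IBA1, ranged from 1.25 to 2.07 in cortex (median 1.74) and from 0.52 to 0.73 in hypothalamus (median 0.62), a difference of -1.05 ± 0.10 or 2.07-fold lower (adjusted p = 1.11e-05). Fcrls, a receptor of resident microglia, ranged from -0.07 to 1.11 and from -0.96 to -0.10 (medians 0.25 and -0.68; -0.97 ± 0.07, adjusted p = 1.21e-06). P2ry12, the purine receptor by which microglia sense injury and neuronal activity, ranged from -0.54 to 0.82 in cortex (median 0.18) and from -1.16 to 0.05 in hypothalamus (median -0.78). It overlapped across animals but was lower in the hypothalamus of every mouse (-0.88 ± 0.11, adjusted p = 6.56e-05). The fractalkine receptor gene Cx3cr1 (-0.62), the growth factor receptor gene Csf1r (-0.62) and Tmem119 (-0.73) differed by about as much, while the lysosomal gene Ctss, which other cells also express, gave -0.21 (adjusted p = 0.079). Without replicate 2 all 19 were called lower.

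Astrocyte genes did not move as a group: 14 of 32 were higher, 5 lower and 13 not called, with a median of 0.19 and 10 genes without overlap. Their most regional members were large in both directions. Agt, the angiotensinogen gene, ranged from -1.26 to -0.15 in cortex (median -0.74) and from 5.06 to 5.52 in hypothalamus (median 5.26), a difference of 6.03 ± 0.14 or 65.4-fold (adjusted p = 1.54e-09), and Itih3, which encodes a hyaluronan-binding heavy chain, differed by 3.77 (adjusted p = 1.35e-09). Chrdl1, the astrocyte factor that brings calcium-impermeable AMPA receptors to cortical synapses, lay between -0.17 and 1.04 in cortex and between -3.61 and -2.97 in hypothalamus (-3.61 ± 0.12, 12.25-fold lower, adjusted p = 1.1e-08). The transmitter uptake genes separated. Slc1a2, the glutamate transporter GLT-1, ranged from 6.08 to 7.16 in cortex (median 6.62) and from 5.18 to 5.92 in hypothalamus (median 5.47), a difference of -1.10 ± 0.12 (adjusted p = 3.61e-05), and its other probes gave -1.41 to -1.80. Slc6a11, the GABA transporter GAT3, ranged from 0.09 to 0.93 (median 0.42) and from 2.47 to 2.996 (median 2.66), a difference of 2.25 ± 0.11 or 4.74-fold (adjusted p = 1e-07). The glycine transporter gene Slc6a9 was higher as well (1.67). Gfap, the intermediate filament of fibrous astrocytes, ranged from 0.48 to 2.14 in cortex (median 1.47) and from 2.71 to 3.73 in hypothalamus (median 3.27), or 1.87 ± 0.24 (adjusted p = 9.45e-05). The general markers moved little: Aqp4 gave 0.22, Slc1a3 -0.14, Aldh1l1 -0.26 and Gja1 0.39 (adjusted p = 0.21, 0.336, 0.0242 and 0.00455).

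Cells of the ventricle wall were represented by 16 genes, of which 8 were higher, 7 lower and 12 had no overlap. The ciliary genes of ependyma were higher: Foxj1, the master regulator of motile cilia, ranged from -2.83 to -2.05 in cortex (median -2.44) and from -0.04 to 0.48 in hypothalamus (median 0.21), a difference of 2.64 ± 0.10 (adjusted p = 2.42e-08). Ccdc153 differed by 7.10 ± 0.48 (adjusted p = 9.32e-07). Tmem212 was above background on all 8 hypothalamus arrays (median 0.54) but on only 2 cortex arrays, so no size is given for it. Other genes of the list were lower. Dio2, which activates thyroid hormone and is also made by astrocytes, ranged from 3.56 to 4.99 in cortex (median 4.06) and from -0.17 to 0.55 in hypothalamus (median 0.33), a difference of -3.84 ± 0.15 (adjusted p = 2.69e-08). Crym, a thyroid hormone binding protein also found in deep cortical neurons, differed by -3.88 and the homeobox gene Lhx2 by -3.15. Of the other defining markers, Col25a1 was not called (0.21, adjusted p = 0.149), and Rax, which defines tanycytes, had no probe.

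**Figure D3:**
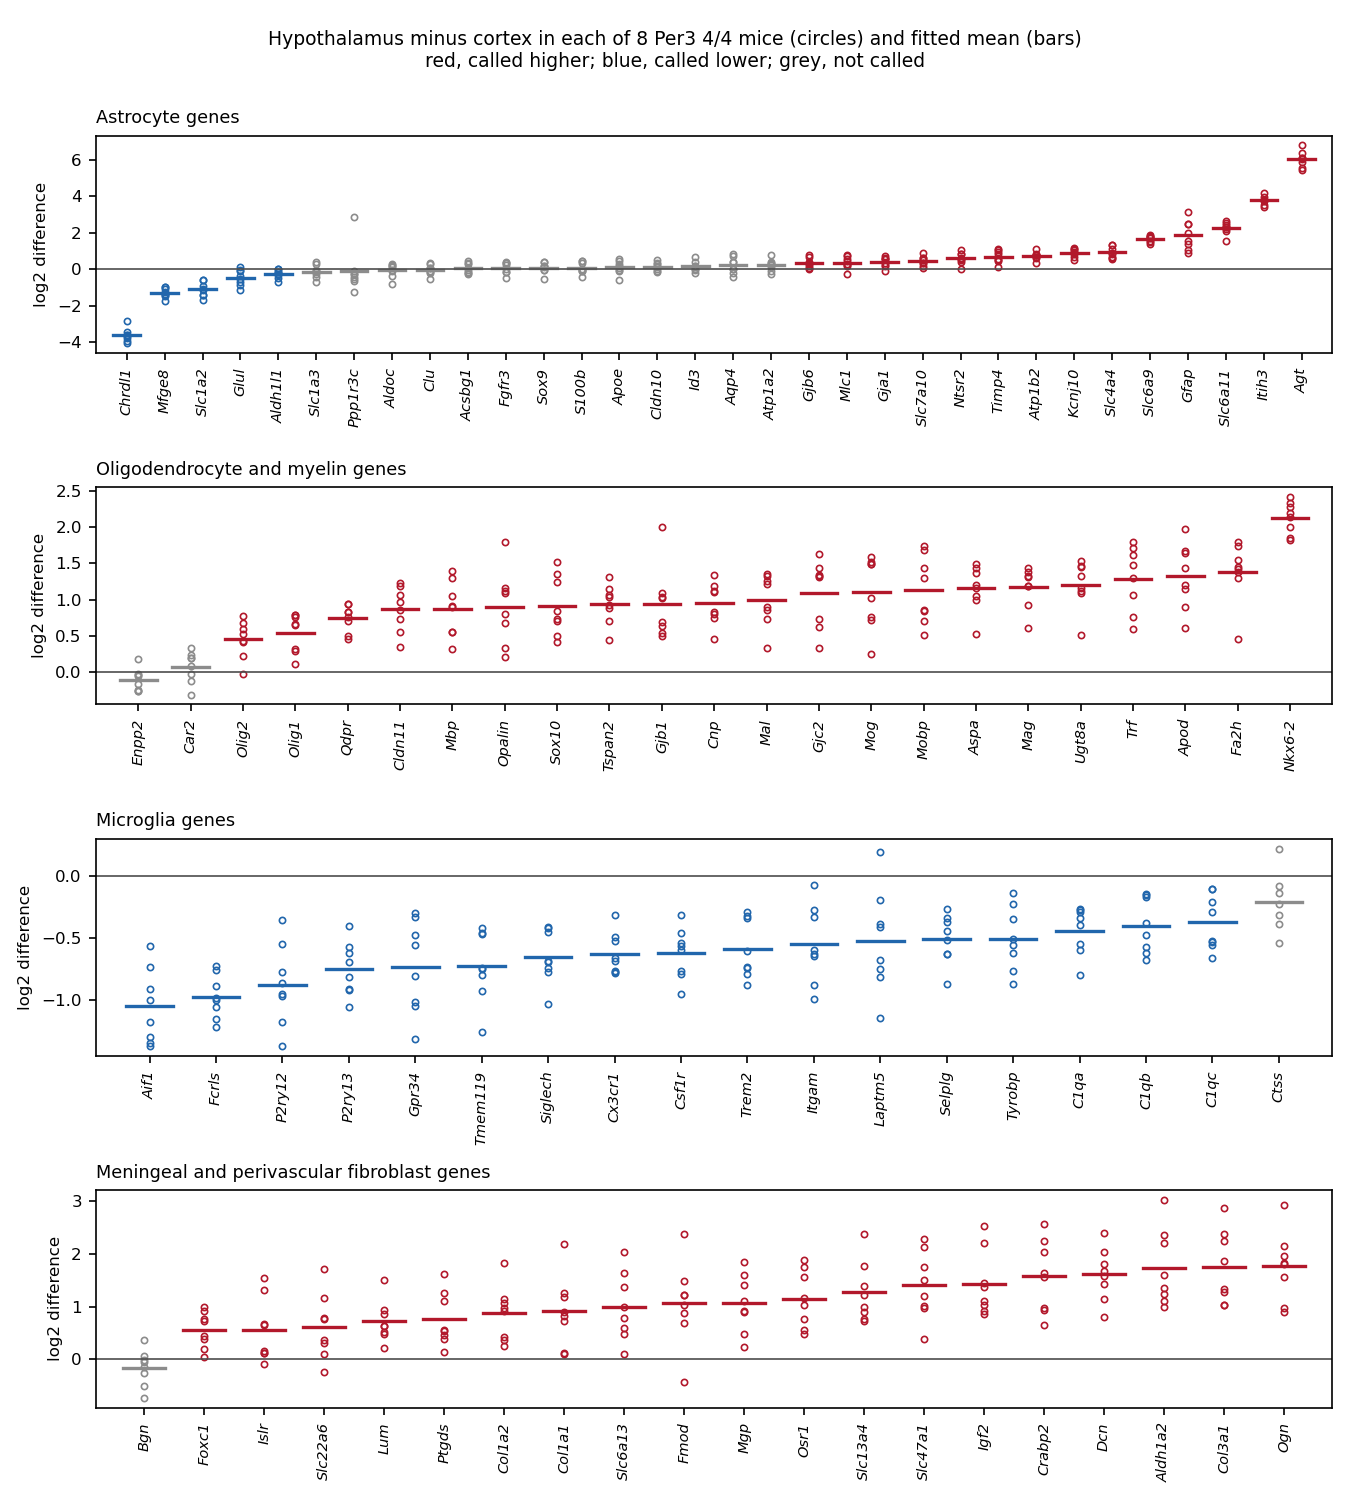
Log2 difference, hypothalamus minus cortex, of the astrocyte, oligodendrocyte, microglia and fibroblast genes reported here in each of the 8 mice (circles) with the fitted mean (bars; red, called higher; blue, called lower; grey, not called). Astrocyte genes run from -3.61 (Chrdl1) to 6.03 (Agt), while all the myelin genes shown except Car2 and Enpp2 are red and all the microglia genes shown except Ctss are blue.

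Along the blood vessels, endothelial genes were lower by small amounts and fibroblast genes were higher. Of 38 endothelial genes 5 were higher, 18 lower and 15 not called (median -0.19; -0.45 to 0.02 over the mice), and 3 had no overlap. Sox17, a transcription factor of arterial endothelium, ranged from 0.52 to 2.43 in cortex (median 1.90) and from -1.43 to 0.43 in hypothalamus (median -0.90). Its difference was -2.50 ± 0.18 (5.64-fold lower, adjusted p = 1.24e-06), but the other Sox17 probe gave -0.05 (adjusted p = 0.653). Genes of the blood-brain barrier were mixed. The membrane-bound carbonic anhydrase gene Car4 ranged from -0.37 to 0.86 in cortex (median 0.39) and from -1.42 to -1.04 in hypothalamus (median -1.37; difference -1.67 ± 0.12, adjusted p = 1.71e-06), and Slco1c1, the thyroxine transporter that astrocytes also carry, differed by -1.61 (adjusted p = 6.48e-07). Cldn5, the tight junction protein claudin 5, was lower by less (-0.49 ± 0.08, adjusted p = 0.00046) and the angiopoietin receptor gene Tek by -0.36 (adjusted p = 0.000974), while Pecam1 and Cdh5, found in all endothelium, gave -0.03 and 0.21 (adjusted p = 0.893 and 0.177). Higher were the organic anion transporter gene Slc22a8 (0.58 ± 0.14, adjusted p = 0.00487), the monocarboxylate transporter gene Slc16a1 (0.54, adjusted p = 3.82e-05) and, named after its value was seen, Plvap, the diaphragm protein of fenestrated capillaries (0.31, adjusted p = 0.00165). In the mice of the first scan day alone 8 endothelial genes were called lower.

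Pericyte and smooth muscle genes did not lean either way beyond the background, with 6 of 18 higher, 2 lower, 10 not called and a median of 0.20. The pericyte genes Higd1b and Rgs5 were lower (-0.49 and -0.43, adjusted p = 0.000707 and 0.00291), whereas Mcam and the smooth muscle gene Cnn1 were higher (0.61 and 0.68, adjusted p = 8.32e-05 and 0.0272). The call on Cnn1 was lost without replicate 4 (0.56, adjusted p = 0.0678) or replicate 6 (0.68, adjusted p = 0.0511), and 4 rather than 2 genes of the list were lower without replicate 2. Of the defining markers, Pdgfrb, Kcnj8 and Acta2 were not called (-0.06, -0.19 and -0.20, adjusted p = 0.62, 0.0619 and 0.116).

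Genes of meningeal and perivascular fibroblasts, the cells that lay down collagen around large vessels and on the brain surface, were higher in 19 of 20 cases, 11 of them at least 2-fold, with a median of 1.06 and none lower. Dcn, the proteoglycan decorin, ranged from 1.46 to 2.51 in cortex (median 1.81) and from 3.12 to 3.94 in hypothalamus (median 3.41), a difference of 1.61 ± 0.16 (adjusted p = 1.3e-05), and it was the 1 gene of the list without overlap. Ogn, the proteoglycan osteoglycin, ranged from -1.02 to 0.80 and from 0.47 to 1.92 (medians -0.43 and 1.55), a difference of 1.77 ± 0.20 (adjusted p = 4.09e-05), and Col3a1, a fibrillar collagen, differed by 1.76 ± 0.22 (adjusted p = 6.51e-05). The mice differed from each other, with list medians between 0.51 and 2.11, and the summed level of the list overlapped between tissues, 131 to 290 times the 75th percentile in cortex and 247 to 433 in hypothalamus. How much of the meninges each block kept was not recorded in the sources used here.

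Blood cell genes varied widely between mice, with list medians from -3.33 to 0.65. Only 1 of 11 was higher and 3 lower, none without overlap, and summed levels covered 84.9 to 172 in cortex and 75.1 to 190 in hypothalamus. The neutrophil genes S100a8 and S100a9 were lower (-1.42 ± 0.47 and -1.52 ± 0.46, adjusted p = 0.0255 and 0.0155), and Bpgm, the red cell enzyme of oxygen release, higher by 0.19 (adjusted p = 0.0065), a call that was lost with scaling to the array median (0.11, adjusted p = 0.14). Without replicate 4, 7 or 8 the call on S100a8 was lost (-1.31, -1.39 and -1.28; adjusted p = 0.0585, 0.0513 and 0.0603), and 1 gene rather than 3 was then lower.

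Ligands and receptors that act on vessels were higher in 16 of 33 cases, 8 of them at least 2-fold, and lower in 7, with a median of 0.16. Beside the Agt difference above, both angiotensin receptor genes were higher. Agtr1a, the receptor for drinking and pressor responses, ranged from -5.34 to -3.58 in cortex (median -3.97) and from -2.29 to -1.40 in hypothalamus (median -1.67), a difference of 2.55 ± 0.20 (adjusted p = 3.18e-06), with 0.74 (adjusted p = 0.000182) by its other probe. Agtr2 differed by 2.44, and the endothelin receptor gene Ednrb, which astrocytes also express, by 1.23. Lower were Vegfc, a growth factor for lymphatic vessels (-0.79 ± 0.06, adjusted p = 3e-06), the sphingosine phosphate receptor gene S1pr1 (-0.59, adjusted p = 0.00157) and the endothelin gene Edn1 (-0.53, adjusted p = 0.00128), while the endothelial nitric oxide synthase gene Nos3 gave -0.07 (adjusted p = 0.247).

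**Figure D4:**
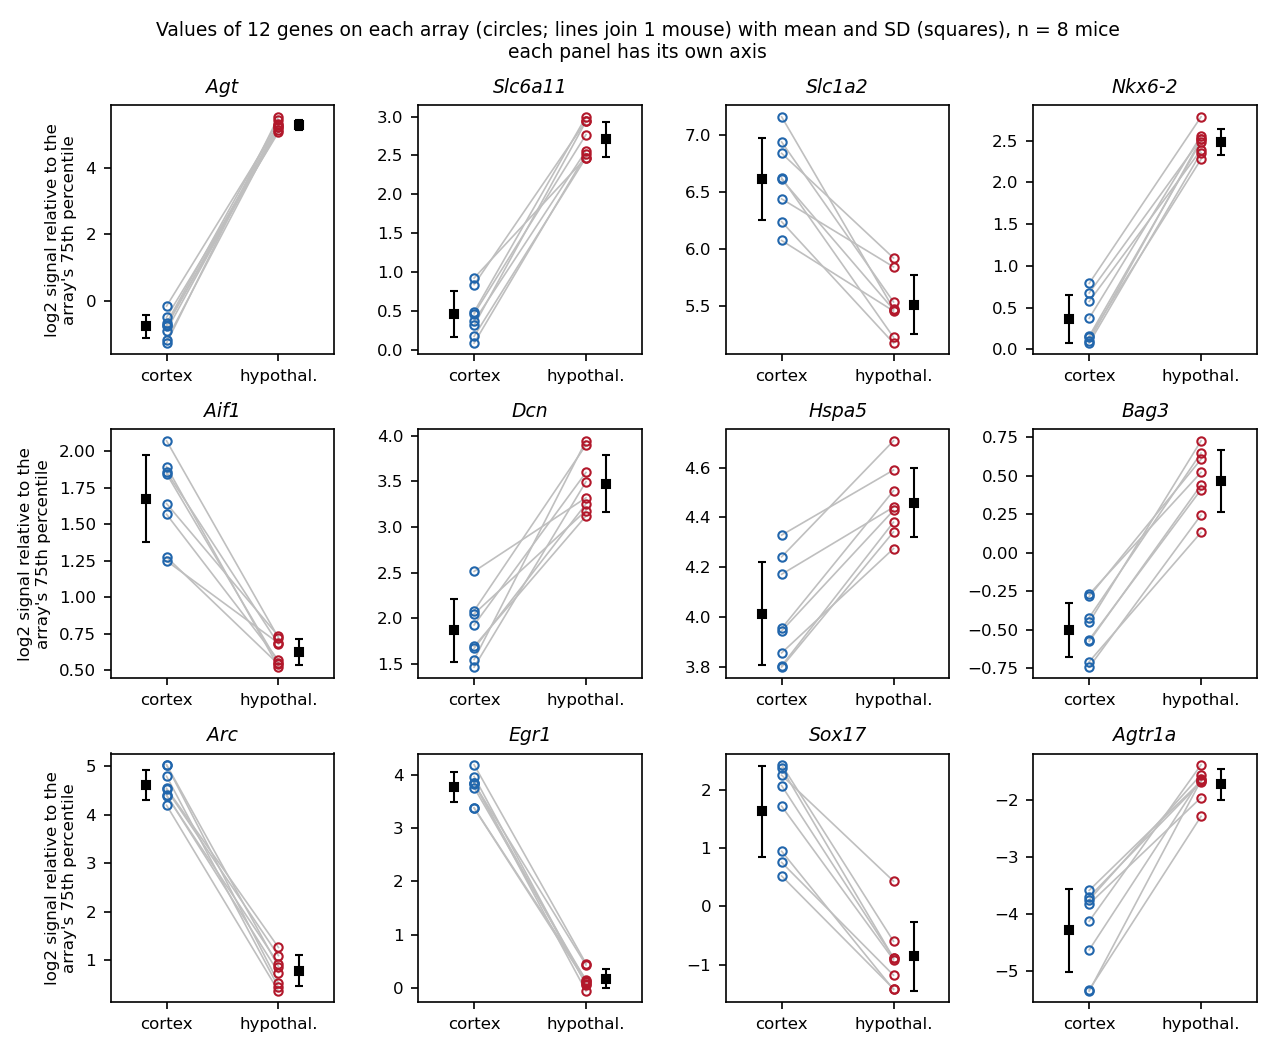
Log2 signal relative to the 75th percentile of the array for 12 genes in cortex and hypothalamus (circles; lines join the tissues of 1 mouse; squares with bars, mean and SD, n = 8; each panel has its own axis). Agt lies near -0.74 in cortex and 5.26 in hypothalamus with no overlap, Aif1 and Arc are lower and Hspa5 higher in the hypothalamus of every mouse, although the groups of Hspa5 overlap.

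Signalling genes separated by the transmitter systems of the 2 regions. Neuropeptide genes were higher in 24 of 33 cases, 22 at least 2-fold, and lower in 7, with a median of 2.19, and 27 of the 33 had no overlap. Pmch, the precursor of melanin-concentrating hormone, ranged from -5.27 to -3.52 in cortex (median -4.42) and from 5.60 to 6.54 in hypothalamus (median 6.02; difference 10.42 ± 0.19, 1365-fold, adjusted p = 9.09e-10), and Oxt, the oxytocin gene, differed by 9.21 (590-fold, adjusted p = 1.1e-09). Gal, the galanin gene, was higher by 4.95 and Pomc, the precursor of melanocortins, by 4.60. The peptides of cortical interneurons were lower: Cort, the gene of cortistatin, by -4.61, Cck, which pyramidal cells also make, by -3.71, Vip by -2.21 and Npy by -1.41, while Sst gave -0.18 (adjusted p = 0.0985). Peptide and hormone receptors were higher in 21 of 38 cases, 20 at least 2-fold, and lower in 7 (median 1.03). With the strict filter on dim probes 14 were called higher with a median of 0.17, and with normexp 17 with a median of 0.11. The calcitonin receptor gene Calcr was below background on all cortex arrays and at least 256-fold higher in hypothalamus (adjusted p = 6.47e-10), with a difference of 3.24 on its other probe, and the galanin receptor gene Galr1 was at least 15.8-fold higher. The neurokinin receptor gene Tacr3, above background on 3 cortex arrays, differed by 5.11 on 1 probe and 2.14 on another, and the cholecystokinin receptor gene Cckbr by -2.41. Trhr2 was lower (-0.86, adjusted p = 0.0324), a call lost without replicate 1 (-0.61, adjusted p = 0.0575), 2 (-0.73, adjusted p = 0.0775) or 8 (-0.77, adjusted p = 0.0743).

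The glutamate transporters of synaptic vesicles differed between the tissues in opposite directions. Slc17a7, VGLUT1 of cortical neurons, ranged from 2.56 to 3.21 in cortex (median 2.91) and from -5.99 to -3.04 in hypothalamus (median -4.56), a difference of -7.46 ± 0.28 or 176-fold lower (adjusted p = 1.98e-08). Slc17a6, VGLUT2 of hypothalamic and thalamic neurons, ranged from -0.06 to 0.80 (median 0.23) and from 4.08 to 4.73 (median 4.57), a difference of 4.20 ± 0.11 (adjusted p = 3.06e-09). Slc17a8, the third of the family, differed by 3.04 on 1 probe and by 0.00 on another. Of 16 amino acid transmitter genes 10 were higher and 4 lower (median 0.58). Gad2 was higher (1.40, adjusted p = 1.13e-06), and its sister enzyme gene Gad1 was not called (0.16, adjusted p = 0.0614). Monoamine and acetylcholine genes divided, 17 of 37 higher and 14 lower (median 0.10). Hdc, the histamine enzyme of the tuberomammillary neurons that keep the brain awake, ranged from -4.91 to -2.82 in cortex (median -3.53) and from 2.40 to 2.998 in hypothalamus (median 2.71), a difference of 6.33 ± 0.16 (adjusted p = 2.88e-09). The dopamine transporter gene Slc6a3 differed by 4.94 ± 0.35 (adjusted p = 1.28e-06), and the cortical receptor genes Drd4 and Adrb1 by -2.46 and -2.26.

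Inside the cell, calcium and MAP kinase signalling genes were lower in the hypothalamus. Of 34 calcium-dependent kinases and phosphatases and their partners 26 were lower, 20 at least 2-fold, and 6 were higher (median -1.10; -1.33 to -0.96 over the mice; 26 without overlap). Itpka, the inositol trisphosphate kinase of dendritic spines, ranged from 6.06 to 6.82 in cortex (median 6.61) and from 1.13 to 1.93 in hypothalamus (median 1.40), a difference of -5.05 ± 0.11 or 33.2-fold lower (adjusted p = 1.05e-09). Nrgn, the calmodulin buffer neurogranin, differed by -3.98 (adjusted p = 8.51e-10). Camk2a, the main kinase of the postsynaptic density, differed by -3.37 ± 0.26 on its brightest probe, whereas its other probe gave 0.42 (adjusted p = 0.0713). Among those higher, Prkcd, a kinase of thalamic neurons and so also a thalamus marker, ranged from -1.83 to -0.59 in cortex (median -1.37). In hypothalamus it ranged from -0.81 to 2.04 (median 0.57), a difference of 1.91 ± 0.30 (adjusted p = 0.000368). Its groups overlapped, and it stood beside the higher thalamus marker sums given above. Prkch gave 0.90 (adjusted p = 0.00203), but 0.26 with normexp background correction, where it was not called (adjusted p = 0.0764). MAP kinase genes were lower in 22 of 27 cases, 8 at least 2-fold, and higher in 2 (median -0.58). Rasgrp1, a calcium-activated switch of Ras, ranged from 3.91 to 4.52 and from 1.01 to 2.09 (medians 4.32 and 1.41; -2.86 ± 0.12, adjusted p = 4.26e-08), and the phosphatase gene Dusp14 differed by -2.73 ± 0.07 (adjusted p = 2.88e-09). The 2 higher genes were Rps6ka5, which encodes the nuclear kinase MSK1 (0.82, adjusted p = 0.000101), and Rasgrf1, whose probes disagreed (0.60 and -0.60).

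Immediate early genes, transcribed within minutes of neuronal firing and used as readouts of time spent awake, were lower in 19 of 22 cases and higher in none (median -1.67; -1.96 to -1.40 over the mice), 14 of them at least 2-fold and 16 without overlap. Arc, which remodels synapses, ranged from 4.19 to 5.03 in cortex (median 4.53) and from 0.36 to 1.26 in hypothalamus (median 0.81), a difference of -3.83 ± 0.14 or 14.25-fold lower (adjusted p = 1.99e-08). Egr1 ranged from 3.37 to 4.18 (median 3.83) and from -0.05 to 0.46 (median 0.13), a difference of -3.59 ± 0.09 (adjusted p = 3.02e-09). Its relatives Egr2 and Egr4 differed by -4.08 ± 0.15 and -4.07 ± 0.13, and Egr3 was at least 4.88-fold lower. Homer1, whose short form rises with wakefulness, was lower on all 3 probes matched to its symbol here (-2.75 to -3.34), as were the nuclear receptor gene Nr4a1 (-2.57), Npas4 (-3.10) and Junb (-2.10). Fos differed by less than the genes just named: it ranged from -1.10 to 0.21 in cortex (median -0.72) and from -1.65 to -0.79 in hypothalamus (median -1.34), with overlap, and differed by -0.68 ± 0.11 (adjusted p = 0.000416). Jun, Jund and Btg2 were not called. The clock genes Per1 and Per2, which respond to activity as well, were lower too, Per1 by -0.65 (adjusted p = 3.15e-05). Since no mouse was left undisturbed, the part of the baseline in these differences was not tested.

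Second messenger genes had both directions. Of 27 adenylyl cyclases, phosphodiesterases and cyclic AMP effectors 11 were higher and 14 lower (median -0.32), and of 35 G protein and RGS genes 12 were higher and 15 lower (median -0.13). Adcy1, the calcium-stimulated cyclase of cortex, ranged from 4.24 to 4.85 in cortex (median 4.52) and from 0.48 to 1.34 in hypothalamus (median 0.73), a difference of -3.74 ± 0.11 (adjusted p = 4.89e-09), and the cyclic AMP exchange factor gene Rapgef4 differed by -2.32. Adcy7 ranged from -1.32 to -1.06 and from 0.20 to 0.84 (medians -1.15 and 0.47; 1.63 ± 0.09, adjusted p = 1.72e-07), and Pde1c was higher by 1.08 (adjusted p = 0.00011). Among regulators of G proteins, Rgs14 and Rgs4 were lower (-2.31 and -1.71) and Rgs16, which follows the clock in the suprachiasmatic nucleus, was higher (2.01, adjusted p = 2.06e-06). Gna14 was above background on 4 cortex and 8 hypothalamus arrays and differed by 1.97 (adjusted p = 4.81e-05), but by 0.23 with normexp background correction, where it was not called (adjusted p = 0.0522).

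Developmental pathways kept regional members. Hedgehog and Notch genes were higher in 14 of 25 cases, 7 at least 2-fold, and lower in 5 (median 0.61). Heyl, a Notch target, ranged from -3.41 to -2.40 in cortex (median -2.99) and from -0.64 to -0.06 in hypothalamus (median -0.41), a difference of 2.58 ± 0.11 (adjusted p = 3.6e-08). Shh itself differed by 1.998 ± 0.14 (adjusted p = 9.34e-07), and the co-receptor gene Boc and the Notch target Hey1 by -1.09 and -0.97. Wnt genes divided evenly, 14 of 32 higher and 12 lower (median 0.04), with Dkkl1 (-4.69) and Wnt10a (-3.90) at one end and Sfrp5 (2.99) and Fzd5 (2.84, and 0.59 on its other probe) at the other. Of 35 BMP and TGF-beta genes 7 were higher and 14 lower (median -0.06), 11 being higher without replicate 5. Inhba, which encodes activin A and is induced by activity, ranged from 0.64 to 1.66 in cortex (median 1.21) and from -2.01 to -1.28 in hypothalamus (median -1.48; difference -2.74 ± 0.17, adjusted p = 4.1e-07), and its antagonist follistatin, Fst, differed by -2.38, against 1.05 for Grem1 and 0.87 for Bmp6. FGF and neurotrophin genes were higher in 17 of 37 cases and lower in 10 (median 0.22). Bdnf differed by -0.90 (adjusted p = 4.61e-06) and Igfbp4 by -2.14, while the neurotrophin receptor gene Ngfr gave 2.47, with 0.20 on its other probe.

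Retinoid and thyroid hormone genes were lower in 13 of 23 cases, 10 at least 2-fold, and higher in 9 (median -0.74). The share called lower was 56.5% against 28.5% of all genes, and the share called higher 39.1% against 36.9%. The lowest member was Nrgn (-3.98), also counted with the calcium genes above. Crabp1, a retinoic acid binding protein, ranged from -5.79 to -4.23 in cortex (median -5.32) and from -0.76 to 0.09 in hypothalamus (median -0.49; difference 4.81 ± 0.20, adjusted p = 3.53e-08), and the retinaldehyde dehydrogenase gene Aldh1a2, also a gene of meningeal fibroblasts, was higher by 1.74. Both deiodinase genes were lower, Dio2 as above and Dio3, which inactivates thyroid hormone, by -2.30 ± 0.15 (adjusted p = 5.49e-07). Of 31 cytokine, JAK-STAT and leptin pathway genes 13 were higher and 10 lower (median 0.03). The prolactin receptor gene Prlr differed by 2.21, and by 6.15 and 6.61 on its other probes, the growth hormone receptor gene Ghr by 1.84, and the leptin receptor gene Lepr by 1.31 ± 0.13 (adjusted p = 1.11e-05), in each case the receptor of a hormone that reaches the hypothalamus through the blood. Il1b, which encodes a sleep-promoting cytokine, was at least 2.6-fold lower, and the chemokine gene Ccl21a differed by -2.62. Ccl21a levels were widely scattered among the mice, with an SD of 2.08 for cortex and 1.92 for hypothalamus. The groups therefore overlapped, although each of the 8 mice had the lower value in its hypothalamus.

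The tissue difference of Per3 4/4 mice was next set against that of the other genotypes, from the difference of each of the 24 mice. Of 31228 probes tested, 1 differed from WT (0.0032%) and 0 from Per3 5/5 (smallest adjusted p = 0.688 by limma), against 1562 (5%) and 1196 (3.83%) at an unadjusted p under 0.05. The 1 probe, A_52_P876147, which had no gene symbol here, differed between tissues by 4.21 in Per3 4/4, 4.27 in Per3 5/5 and 5.34 in WT, and by -1.13 ± 0.17 between Per3 4/4 and WT (adjusted p = 0.0303), a call that was lost without any 1 of replicates 1, 2, 3, 4, 5 or 7. Of the 18218 probes called in Per3 4/4 on this set, 15113 were called with the same sign in Per3 5/5 (83% of them, and 87.5% of the 17276 called in Per3 5/5), and 15464 in WT (84.9%, and 86.4% of 17891). Only 6 and 2 were called with opposite signs. No listed gene was called in either genotype contrast. The list medians lay close together for microglia (-0.59 in Per3 4/4, -0.61 in Per3 5/5 and -0.57 in WT), immediate early genes (-1.67, -1.66 and -1.64), calcium kinases (-1.10, -1.10 and -1.09) and chaperones (0.39, 0.28 and 0.39). They lay farther apart for myelin genes (0.97, 1.02 and 0.61), fibroblast genes (1.06, 0.52 and 0.75) and blood cell genes (-0.87, -0.96 and 0.15). Among neighbouring tissues, markers of striatum (-0.11, -0.30 and -0.69) and pituitary (4.31, 2.61 and 5.97) lay apart too. Those of thalamus (2.28, 2.33 and 2.21) and choroid plexus (2.13, 1.95 and 2.09) lay closer together. Of 10 striatum markers, 4 had an unadjusted p under 0.05 by limma against WT. The part of block content in these gaps was not tested. The blood cell median of Per3 4/4 mice was -0.39 without replicate 5, -0.08 on the first scan day alone and 0.08 with the strict filter on dim probes. Scan days were unbalanced between the genotypes: on the first, second and last day 4, 3 and 1 Per3 4/4 mice were scanned, the Per3 5/5 mice fell on the first and last day (4 each) and the WT mice on the second and last (5 and 3), so scan day and genotype were partly confounded in these medians. For myelin 9 of 24 genes had an unadjusted p under 0.05 against WT, none of which passed the adjustment over all probes, and for fibroblast genes 19 were called higher in Per3 4/4, 8 in Per3 5/5 and 14 in WT.

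**Figure D5:**
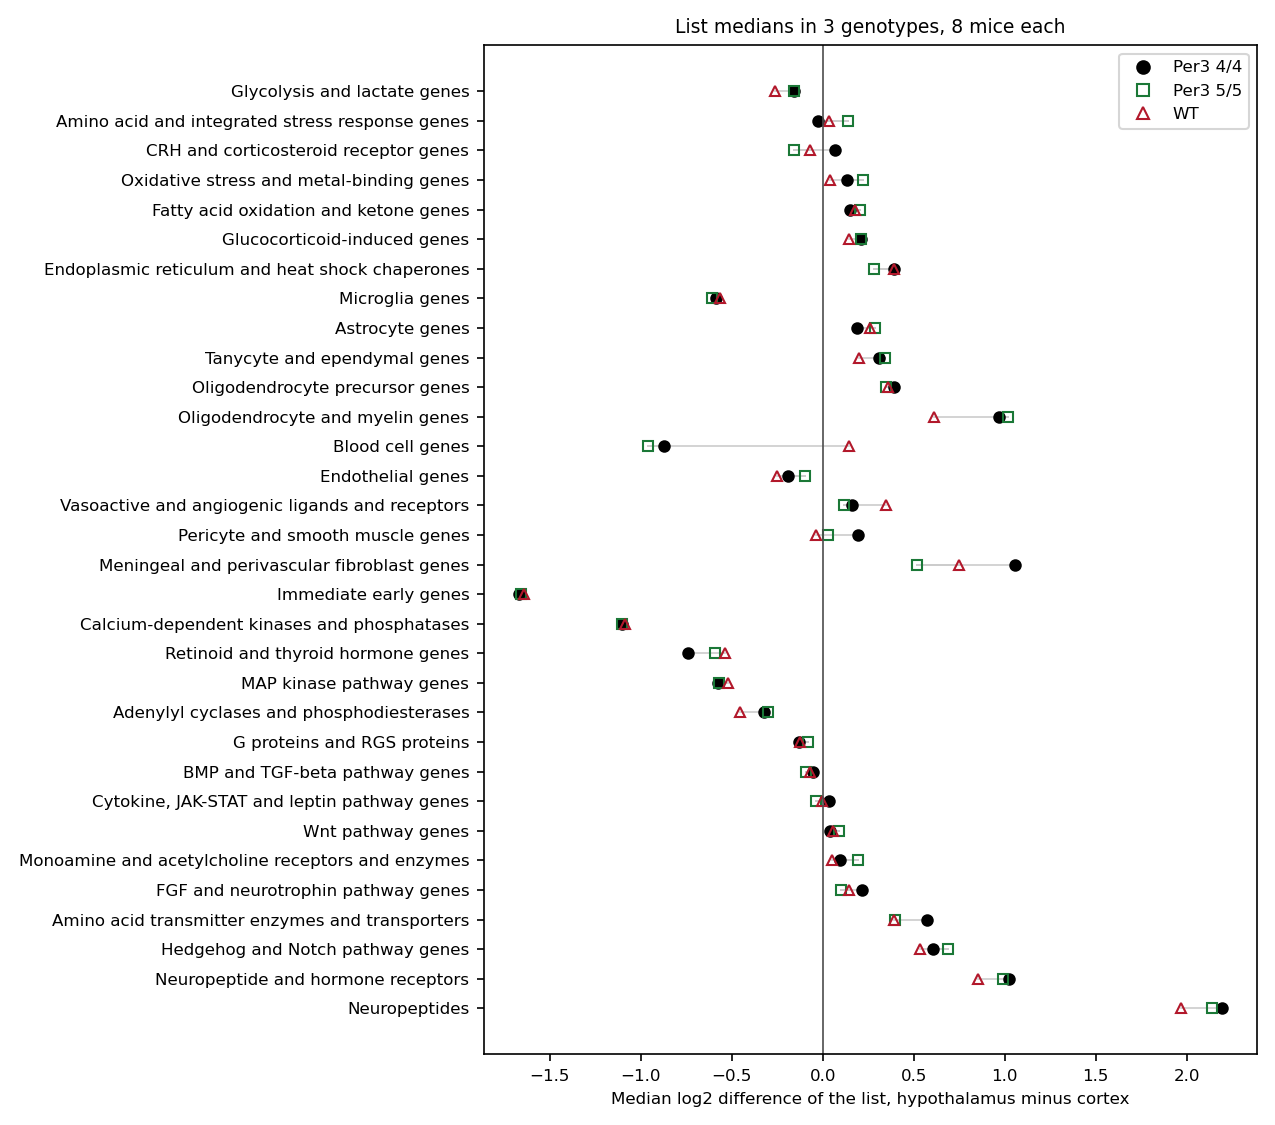
Median log2 difference, hypothalamus minus cortex, of the lists of stress metabolism, glia, vessels and signalling in Per3 4/4 (filled circles), Per3 5/5 (squares) and WT mice (triangles), 8 mice each. The marker lists of region and of neighbouring tissue are not drawn. The 3 symbols nearly coincide for immediate early genes (-1.67, -1.66 and -1.64) and lie apart for blood cell genes (-0.87, -0.96 and 0.15).

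The altered gene itself was measured by 1 probe. Per3 ranged from -3.54 to -2.53 in cortex (median -2.97) and from -3.92 to -3.01 in hypothalamus (median -3.34), and was lower in the hypothalamus of all 8 mice by 0.39 ± 0.07 (log2 difference -0.39, adjusted p = 0.00085), with overlapping groups. The difference was -0.38 in Per3 5/5 mice (adjusted p = 0.0101) and -0.16 in WT mice (adjusted p = 0.197). The genotypes did not pass the test of that difference (Per3 4/4 minus WT -0.24 by the fit, adjusted p = 0.925). Whether the probe lies in the exon exchanged was not settled here.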

How the data were processed

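Total RNA of 16 tissue blocks from 8 Per3 4/4 mice was labelled with Cy3 and hybridised to 1-colour Agilent mouse arrays, 4 to a slide. The authors scanned them with Agilent Feature Extraction 10.7.1.1, and the deposited files hold, per the file headers, the processed signal intensity of each spot, background-subtracted but not scaled between arrays. The authors' normalised log2 table was not used, because it had been centred per probe within each tissue, which removes the difference studied here. For the report, log2 intensities were scaled to the 75th percentile of the non-control spots of each array, outlier spots were set to missing and spots of 1 probe were averaged. Probes that Feature Extraction marked as above background in 6 or more of the 8 arrays of a tissue were tested with limma 3.58.1 in R 4.3.3, with mouse as a block, two-sided, and Benjamini-Hochberg adjustment over all 29684 probes. The arrays were paired because both tissues came from the same animal. Same-mouse deviations from the tissue means correlated at 0.142 to 0.500, and 4 of 8 cortex arrays correlated best with their own mouse. Both arrays of a mouse also shared a slide and a scan day, so these correlations do not separate the animal from the slide. Genotypes were compared through the within-mouse differences of all 24 mice. Calls were made where the adjusted p lay under 0.05. A probe not above background on every array of 1 tissue was given as a bound, the mean of the brighter tissue against the higher, per array, of the dimmest detected signal and the probe's own.

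Symbols came from RefSeq accessions, which matched 27668 of 41174 probes. Genes were counted in 38 lists of stress metabolism, glia, vessels, signalling, tissue identity and neighbouring tissue, each gene by its brightest tested probe, so that other probes of a gene can disagree and are given where they do. Members and lists were chosen with earlier results of these data known. Named by rule were up to 2 called genes per list and direction with the largest difference, the 10 largest differences overall in each direction, the identity genes, Per3 and up to 5 probes per genotype contrast. Other genes were added as defining markers or after their values were seen, and some listed genes are not reported here by name. Alternatives were no block, other scalings, background corrections and filters, outlier spots kept, scan days apart, the methods' t-test and each mouse left out. The code was tested on simulated data. The number of arrays limits the precision. Standard errors (SE) are the moderated ones of limma for the within-mouse difference, which borrow the spread across probes.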

Additional observations from a re-analysis of the deposited data

Results flagged for a closer look

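In 410 groups of 8 values tested for an array far from the other 7, 32 were flagged, where chance flags about 1 in 20 groups, and 1 difference between genotypes was flagged besides. Values are log2 signals relative to the 75th percentile of the array unless stated. The cortex array of replicate 2 was highest for Fa2h (1.33), Ngfr (-0.72), Igsf1 (-2.16), Magel2 (-3.09), Nkx2-1 (-5.42) and Six3 (-4.26). Its summed striatum (26.07), hypothalamus (2.15) and choroid plexus (0.64) markers, in multiples of the 75th percentile, were highest too. Replicate 5 was lowest in cortex for Rasgrp1 (3.91), Neurod6 (1.28), Fezf2 (-0.49) and the summed MAP kinase genes (154.45), highest in cortex for the summed Hedgehog and Notch genes (36.09), and lowest in hypothalamus for Hcrt (6.66) and the summed astrocyte genes (907.89). The same mouse had the lowest list median difference for glucocorticoid-induced (-0.16), FGF and neurotrophin (-0.20), oligodendrocyte precursor (-0.08), Hedgehog and Notch (0.21) and pituitary genes (2.69). Replicate 6 was highest in hypothalamus for Sox17 (0.43), lowest there for Bpgm (2.24) and Igsf1 (3.08), and lowest in cortex for Hdc (-4.91). Replicate 1 was highest in cortex for Drd4 (-1.52), Nrn1 (4.62) and the summed cortex markers (125.8), lowest in hypothalamus for Bdh1 (2.40) and highest there for the summed pituitary markers (5.26). Slc22a8 was highest in the cortex of replicate 7 (-0.07), and Six6 in the hypothalamus of replicate 3 (-2.93). The tissue difference of probe A_52_P876147 was the 1 that differed between genotypes by its own test (Per3 4/4 minus WT, -1.13).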

How the results depend on the processing

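Of 2845 values of 151 named results under 19 alternatives, 2797 kept their direction and call, 48 (of 20 results) lost the call and 0 reversed. Without the replicate block, 16439 probes were called against 18018 with it. Requiring 2-fold left 4769 called, 2454 higher and 2315 lower, and the mice of the later scan days alone gave 6151 higher calls. Leaving out each mouse gave 16913 to 17861 calls, 9025 to 9568 higher and 7888 to 8412 lower. The median of all probes was 0.025, -0.062 with array-median scaling, 0 with quantile normalization and -0.104 with normexp, and list medians near 0 could change sign, as for corticotropin-releasing hormone and corticosteroid receptor genes (-0.21), monoamine genes (-0.084) and FGF genes (-0.009), all with normexp. Normexp also drew in large medians: neuropeptides (1.53), their receptors (0.11), Hedgehog and Notch genes (0.26), immediate early genes (-0.98), and hypothalamus (3.40), cortex (-3.36), thalamus (1.66), pituitary (0.75) and choroid plexus (0.57) markers. A strict filter, which left fewer genes, gave 0.17 for the peptide receptors, -1.24 for immediate early genes, and 7.73, -0.17 and 2.44 for hypothalamus, pituitary and choroid plexus markers, the pituitary median being 4.31, or 2.93 with bounded genes at their bound. Array-median scaling gave -0.25 for glycolysis, 0.31 for chaperones and -0.67 for MAP kinase genes. The first scan day alone gave 0.32 for chaperones and -4.42 for cortex markers, the later days 0.28 for monoamine genes, and the median over all probes of a gene 0.41 for vasoactive genes. With the later scan days alone, which left 4 mice, 13 chaperone and 10 fibroblast genes were called higher and 8 glycolysis genes lower. The cause of these changes was not tested. Between the first and the later scan days 0 probes differed by limma (1242 at an unadjusted p under 0.05, 4.18%). The single call between Per3 4/4 and WT became 0 with scan day as a block, in the second scan day alone and with quantile normalization, 94 with normexp, and 0 to 1 with each Per3 4/4 mouse left out. Calr was not called without the replicate block (adjusted p = 0.0996) or by the methods' t-test (adjusted p = 0.114), Per3 was not called by the methods' t-test (adjusted p = 0.0608), and Sim1 was not called with normexp (0.27, adjusted p = 0.112). Signal over background limits genes that 1 tissue hardly expresses, and 8 mice with 4 on 1 scan day limit the within-day values.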
